A study of Saccharomyces cerevisiae with 12 samples.

Results

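The vacuolar proton ATPase (V-ATPase) subunit genes VMA1, VMA2, VMA3, VMA4, VMA5, VMA6, VMA8, VMA10, VPH1 and STV1 were followed across budding yeast grown with and without high KCl. The 10 genes were taken by name from a deposited table of 7126 genes and other features, and all 10 were among the 6309 features with enough counts to be tested. Saccharomyces cerevisiae cells of 2 strains were sampled as 3 replicates in each of 4 groups, which gave 12 libraries of poly(A) RNA. The groups were crz1cnb1 cells after 48 h in 400 mM KCl, crz1cnb1 cells at 0 h, crz1 cells after 48 h in 400 mM KCl, and crz1 cells at 0 h. Cells were grown in synthetic medium with ammonium chloride and were diluted every 12 h during the KCl treatment.

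Both strains were haploid in the BY4741 background and shared the alleles MATa, his3delta1, ura3delta0, leu2delta0, lys2delta0 and crz1delta::LEU2. Both also carried the insertion ChrVI181901-182001::HYG-TEFp-GFP(Y66F). The crz1cnb1 strain carried cnb1delta::KanMx in addition. CNB1 encodes the regulatory subunit of the phosphatase calcineurin, and CRZ1 encodes the transcription factor that calcineurin activates. Neither strain therefore had Crz1, and no strain with an intact CRZ1 gene was analysed here. No untreated cells at 48 h were analysed either, so the effect of KCl and that of 48 h of culture cannot be told apart.

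The V-ATPase is a rotary pump that uses ATP to move protons into the vacuole, Golgi and endosomes. Its V1 sector lies in the cytosol and hydrolyses ATP, and its membrane-embedded Vo sector carries the protons. In yeast the acid vacuole drives the storage of calcium, sodium, zinc, amino acids and other solutes by proton exchange, and V-ATPase mutants cannot grow at neutral pH or in high calcium. The large Vo subunit a is the only subunit encoded by a pair of genes. Vph1 is the form found at the vacuole, and Stv1 is the form found at the Golgi and endosomes.

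Of the 10 genes, 6 encode V1 subunits. VMA1 encodes the catalytic subunit A and was at chrIV:126787-130002 on the plus strand of the R64 assembly, and VMA2 encodes the nucleotide-binding subunit B at chrII:491269-492822 on the minus strand. VMA4 encodes stalk subunit E at chrXV:943656-944357 on the plus strand, and VMA10 encodes its partner G at chrVIII:187173-187679 on the minus strand, the only member with 2 exons. VMA5 encodes subunit C, which joins V1 to Vo, at chrXI:285030-286208 on the plus strand. VMA8 encodes subunit D of the central rotor at chrV:58378-59148 on the plus strand. The other 4 encode Vo subunits. VMA3 encodes the main proteolipid of the proton-carrying ring at chrV:100769-101251 on the plus strand, and VMA6 encodes subunit d at chrXII:1026856-1027893 on the minus strand. VPH1 lay at chrXV:828052-830574 on the minus strand, and STV1 lay at chrXIII:383303-385975 on the plus strand. No annotated gene overlapped a member, and no member shared a stretch of 50 bases with another place in the genome.

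The start regions of the 2 subunit a genes are shown because the levels of this gene pair are set against each other in each library. Each sequence runs from 250 bases before the start codon to 50 bases counted from its first base, from the RefSeq R64 assembly, with the start codon in capitals. The VPH1 sequence is chrXV:830525-830824 on the minus strand, and the STV1 sequence is chrXIII:383053-383352 on the plus strand.
VPH1: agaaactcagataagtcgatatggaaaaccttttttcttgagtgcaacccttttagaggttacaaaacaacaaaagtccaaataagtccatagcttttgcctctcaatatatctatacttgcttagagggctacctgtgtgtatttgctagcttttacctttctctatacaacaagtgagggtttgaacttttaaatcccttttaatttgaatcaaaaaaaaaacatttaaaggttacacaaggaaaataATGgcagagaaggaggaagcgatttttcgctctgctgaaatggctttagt
STV1: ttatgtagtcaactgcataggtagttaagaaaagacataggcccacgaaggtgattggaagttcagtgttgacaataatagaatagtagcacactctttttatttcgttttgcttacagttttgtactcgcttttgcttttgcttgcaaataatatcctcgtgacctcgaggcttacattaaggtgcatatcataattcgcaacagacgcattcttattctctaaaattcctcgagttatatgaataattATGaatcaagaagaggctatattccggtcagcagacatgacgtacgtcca
In all, 4 motifs were searched on both strands of these windows and of the windows of 5987 genes. None of them was present in the VPH1 or STV1 window. CACGTG, the core of the Pho4 and Cbf1 sites, was in 0 of 10 members and in 2.91% of all windows. AGGGG, the site of Msn2 and Msn4, was in the windows of VMA1, VMA3 and VMA4 and in 21.6% of all windows. GTGGCAA, part of the site of the proteasome gene activator Rpn4, was in the VMA10 window and in 4.66% of all windows. GTGGCTG, part of the Crz1 site, was in 0 of 10 members and in 1.4% of all windows. A match is a stretch of letters, and binding was not measured.

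The libraries were of even depth, with 21305485 to 21599279 counts each, and a member had between 2107 and 36032 counts in a library. CNB1 had 14 to 68 counts in the crz1cnb1 libraries, against 1346 to 3139 in the crz1 libraries, and CRZ1 had 3 to 19 counts in any library. The mating type markers fitted the labelled MATa type, with 53116 to 83093 counts per library for the sum of 7 MATa genes and 512 to 971 for the sum of 4 MATalpha genes. Values are shares of the RNA of a whole culture, so a change in every cell and a change in part of the cells cannot be told apart.

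Levels are compared between genes in TPM, deposited values that divide counts by gene length and scale each library to the same total. VMA3 had the highest level of the 10 genes, with a mean of 2219 TPM over the 12 libraries. VMA2 came next with 507 TPM, followed by VMA10 with 378.2, VMA6 with 357.2, VMA5 with 344.3, VPH1 with 311, VMA4 with 308.4, VMA8 with 211 and VMA1 with 188.8 TPM. STV1 was the lowest, with 56.5 TPM. VMA3 was above VMA2 in 12 of 12 libraries and STV1 was below VMA1 in 12 of 12 libraries, and these were the only neighbours in the order whose ranges did not overlap in any group. VMA4 was above VMA8 in 12 of 12 libraries, but their ranges overlapped in 3 of 4 groups. All other neighbours overlapped in all 4 groups. Within libraries, VMA5 was above VPH1 in 10 of 12 and VMA8 above VMA1 in 9 of 12. For the remaining neighbours the gene with the higher mean was above in 5 to 8 of 12. Differences between genes were not tested.

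**Figure D1:**
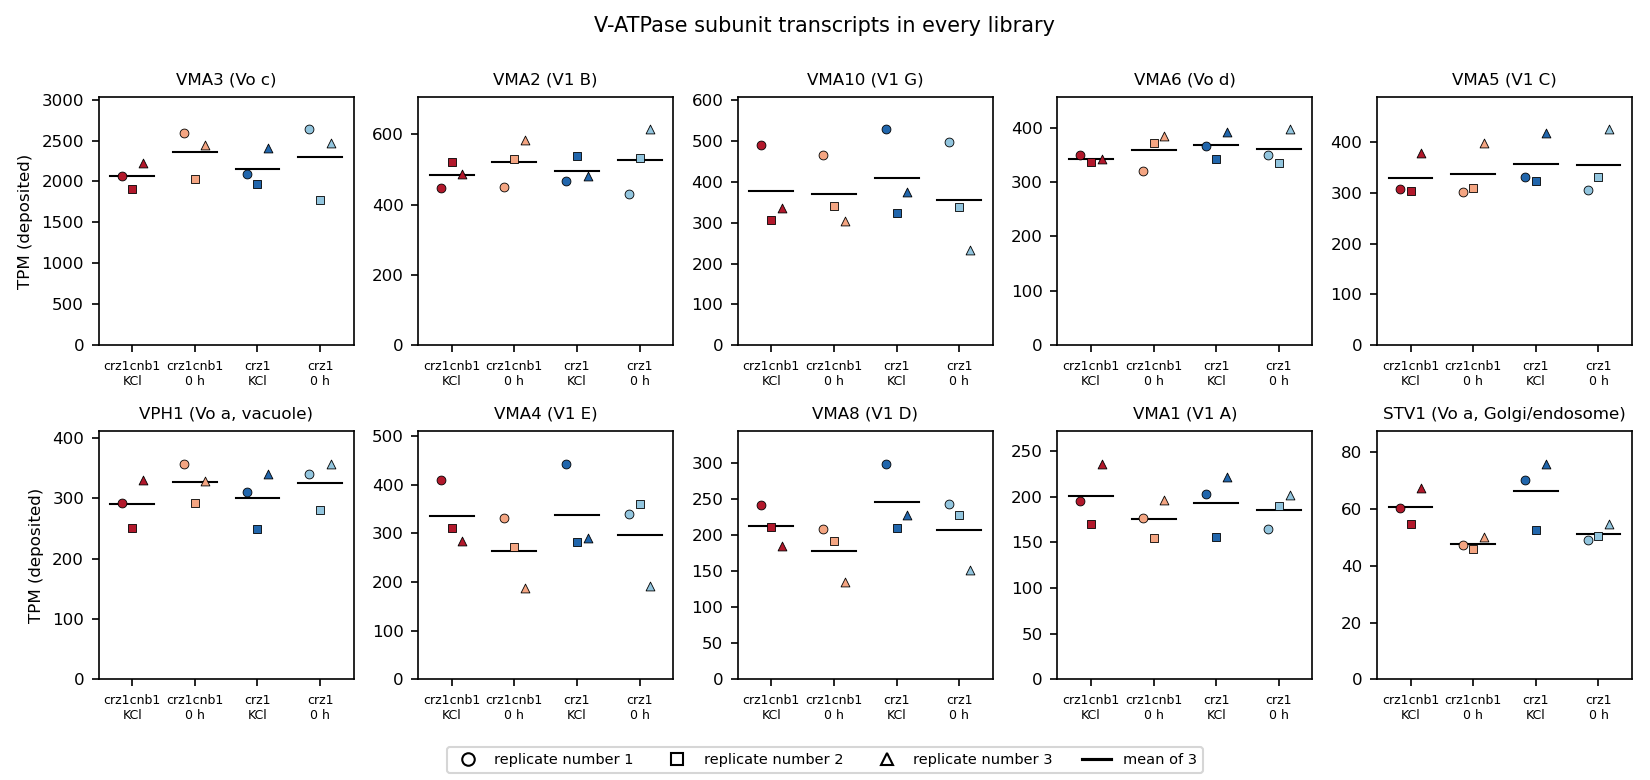
TPM of the 10 V-ATPase subunit genes, 1 panel per gene with its own axis from 0; each point is a library, its shape gives the replicate number and the line is the mean of 3. Between KCl and 0 h the panels overlap except for STV1 in crz1cnb1, with 54.6 to 67.3 TPM in KCl and 45.8 to 50.2 TPM at 0 h.

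The values of VMA1 and VMA2, whose products form the catalytic hexamer of V1, overlapped between the treatments. VMA1 had 194.8, 169.7 and 236.2 TPM in crz1cnb1 KCl and 176.6, 155.0 and 196.5 TPM in crz1cnb1 0 h. It had 202.5, 156.3 and 221.9 TPM in crz1 KCl and 165.1, 189.7 and 201.6 TPM in crz1 0 h. These groups overlapped, and in each of them replicate number 3 was highest. VMA2 had 448.4, 521.3 and 486.8 TPM in crz1cnb1 KCl and 450.8, 529.0 and 583.1 TPM in crz1cnb1 0 h. It had 467.0, 538.7 and 481.7 TPM in crz1 KCl and 430.0, 533.0 and 613.9 TPM in crz1 0 h. The KCl values of VMA2 lay inside the range at 0 h in crz1, overlapped it in crz1cnb1, and replicate number 1 was lowest in every group.

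The stalk genes VMA4 and VMA10 varied most between libraries. VMA4 had 410.5, 311.8 and 283.8 TPM in crz1cnb1 KCl and 331.4, 271.3 and 187.3 TPM in crz1cnb1 0 h. It had 443.1, 281.8 and 289.4 TPM in crz1 KCl and 339.3, 360.3 and 191.4 TPM in crz1 0 h. Its lowest values were those of replicate number 3 at 0 h in both strains, and the highest library stood 2.37 times above the lowest. VMA10 had 489.6, 305.8 and 335.3 TPM in crz1cnb1 KCl and 467.0, 341.1 and 303.5 TPM in crz1cnb1 0 h. It had 528.6, 323.7 and 374.3 TPM in crz1 KCl and 497.4, 338.6 and 233.7 TPM in crz1 0 h. For VMA10, replicate number 1 was highest in all 4 groups and the groups overlapped.

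VMA8, like VMA10, had its highest value in replicate number 1 of every group. Its means were 212.6 ± 28.3 TPM in crz1cnb1 KCl and 178.2 ± 38.5 TPM in crz1cnb1 0 h (SD, n = 3 each, as for all means here). In crz1 they were 245.4 ± 47.4 TPM in KCl and 207.8 ± 48.9 TPM at 0 h. VMA5, whose product leaves the complex when V1 and Vo come apart, averaged 329.4 ± 42.4 TPM in crz1cnb1 KCl and 336.6 ± 53.9 TPM in crz1cnb1 0 h. In crz1 it averaged 357.4 ± 52.2 TPM in KCl and 353.9 ± 62.7 TPM at 0 h. For both genes the difference between the means was smaller than the SD of at least 1 of the groups.

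Among the Vo genes, VMA3 had 2066, 1906 and 2230 TPM in crz1cnb1 KCl and 2595, 2027 and 2446 TPM in crz1cnb1 0 h. It had 2096, 1970 and 2410 TPM in crz1 KCl and 2636, 1771 and 2476 TPM in crz1 0 h. Replicate number 2 of VMA3 was lowest in every group, and the treatments overlapped in both strains. VMA6 was the steadiest member, with a highest library 1.24 times its lowest. It averaged 342.8 ± 6.5 TPM in crz1cnb1 KCl and 358.6 ± 33.9 TPM in crz1cnb1 0 h, and 367.4 ± 25.0 TPM in crz1 KCl and 360.0 ± 32.6 TPM in crz1 0 h.

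The subunit a genes lay on opposite sides of no change. VPH1 had 292.6, 250.4 and 331.1 TPM in crz1cnb1 KCl and 357.8, 293.0 and 329.4 TPM in crz1cnb1 0 h. It had 310.3, 249.1 and 340.9 TPM in crz1 KCl and 340.7, 280.2 and 357.0 TPM in crz1 0 h. Replicate number 2 of VPH1 was lowest in every group, and its groups overlapped. STV1 had 60.5, 54.6 and 67.3 TPM in crz1cnb1 KCl and 47.2, 45.8 and 50.2 TPM in crz1cnb1 0 h. It had 70.3, 52.6 and 75.9 TPM in crz1 KCl and 49.0, 50.3 and 54.5 TPM in crz1 0 h. All 3 KCl values of STV1 lay above all 3 values at 0 h in crz1cnb1, whereas in crz1 replicate number 2 in KCl lay within the range at 0 h.

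Measured by overlap in TPM, 1 of 10 members, STV1, was separated by treatment in crz1cnb1 and 0 of 10 in crz1. Among all tested features, 13.8% were separated in crz1cnb1 and 9.21% in crz1, in either direction. In CPM, counts divided by the library size after TMM scaling, which sets libraries to the same level by the bulk of their genes, 0 of 10 members were separated in either strain, against 13.3% and 10.3% of all features. The members' counts were therefore near or below the background. TMM scaling and the library totals that set TPM differed by 0.16 on the log2 scale for KCl against 0 h in crz1cnb1 and by 0.09 in crz1, and all log2 fold changes below are TMM-scaled unless stated.

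No V-ATPase gene passed the test for KCl against 0 h in either strain. edgeR's quasi-likelihood test with Benjamini-Hochberg adjustment at 0.05 called 0 of 10 members in crz1cnb1, where 0.586% of all features were called, and 0 of 10 in crz1, where 0.571% were called. At an unadjusted p under 0.05 the same test also gave 0 of 10 members in each strain, against 8.35% of all features in crz1cnb1 and 8.50% in crz1. DESeq2 called 0 of 10, against 1.94% of features in crz1cnb1 and 1.70% in crz1. The edgeR fit with the replicate number as a block also called 0 of 10, against 4.98% and 4.82%. The median log2 fold change of the members was −0.16 in crz1cnb1 and −0.02 in crz1, with 4 members above and 6 below 0 in each strain. Over all features the medians were 0.02 and 0.01. Scaling by library totals put VMA10 above 0 in crz1cnb1, and VMA1, VMA5 and VMA6 above 0 in crz1, so the signs of these small values are not firm.

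Within V1, VMA2 in crz1cnb1 was the only gene whose log2 fold change of KCl over 0 h was larger in size than its standard error. VMA1 gave 0.03 ± 0.26 in crz1cnb1 and 0.00 ± 0.26 in crz1, and VMA2 gave −0.27 ± 0.23 and −0.16 ± 0.23. VMA4 gave 0.20 ± 0.23 in crz1cnb1 and 0.14 ± 0.23 in crz1, VMA5 gave −0.20 ± 0.28 and −0.06 ± 0.28, and VMA8 gave 0.10 ± 0.19 and 0.18 ± 0.19. VMA10 gave −0.13 ± 0.27 in crz1cnb1 and 0.13 ± 0.27 in crz1, both within 1 standard error of 0.

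Within Vo, the values of VMA3 and VPH1 lay below 0 in both strains and that of STV1 above it, under TMM scaling and under library totals, with VMA6 above 0 in crz1 under library totals. VMA3 gave −0.35 ± 0.26 in crz1cnb1 and −0.17 ± 0.26 in crz1, and VMA6 gave −0.23 ± 0.22 and −0.05 ± 0.22. VPH1 gave −0.32 ± 0.25 in crz1cnb1 and −0.20 ± 0.25 in crz1. STV1 gave 0.19 ± 0.23 in crz1cnb1 and 0.30 ± 0.23 in crz1. By edgeR's quasi-likelihood test with Benjamini-Hochberg adjustment, the adjusted p of the 10 members ranged from 0.827 to 0.986 in crz1cnb1 and from 0.897 to 0.9996 in crz1. With the replicate block the lowest adjusted p of the edgeR test were 0.104 for VPH1 in crz1cnb1 and 0.0803 for STV1 in crz1.

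The 95% intervals give the sizes of change that the test leaves room for. In crz1cnb1 they reached down to −0.91 for VMA3, a fold of 0.531, and up to 0.70 for VMA4, a fold of 1.62. In crz1 they reached down to −0.75 for VPH1, a fold of 0.596, and up to 0.80 for STV1, a fold of 1.75. The whole interval lay within a fold of 2 either way for 10 of 10 members in each strain. It lay within a fold of 1.5 either way for 1 member in crz1cnb1 and 2 in crz1. With the replicate block the standard errors were 0.0884 to 0.145, and the intervals of 9 members in crz1cnb1 and 10 in crz1 lay within a fold of 1.5. Without adjustment for the number of genes, the blocked intervals left out 0 for VMA3 (−0.66 to −0.022) and VPH1 (−0.57 to −0.093) in crz1cnb1. In crz1 they left out 0 for STV1 (0.099 to 0.49). All other blocked intervals of KCl against 0 h included it. The share of all features whose blocked interval leaves out 0 was not counted, so no change is read from them. With adjustment the blocked edgeR test called 0 of 10 members, against 4.98% of all features in crz1cnb1 and 4.82% in crz1.

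**Figure D2:**
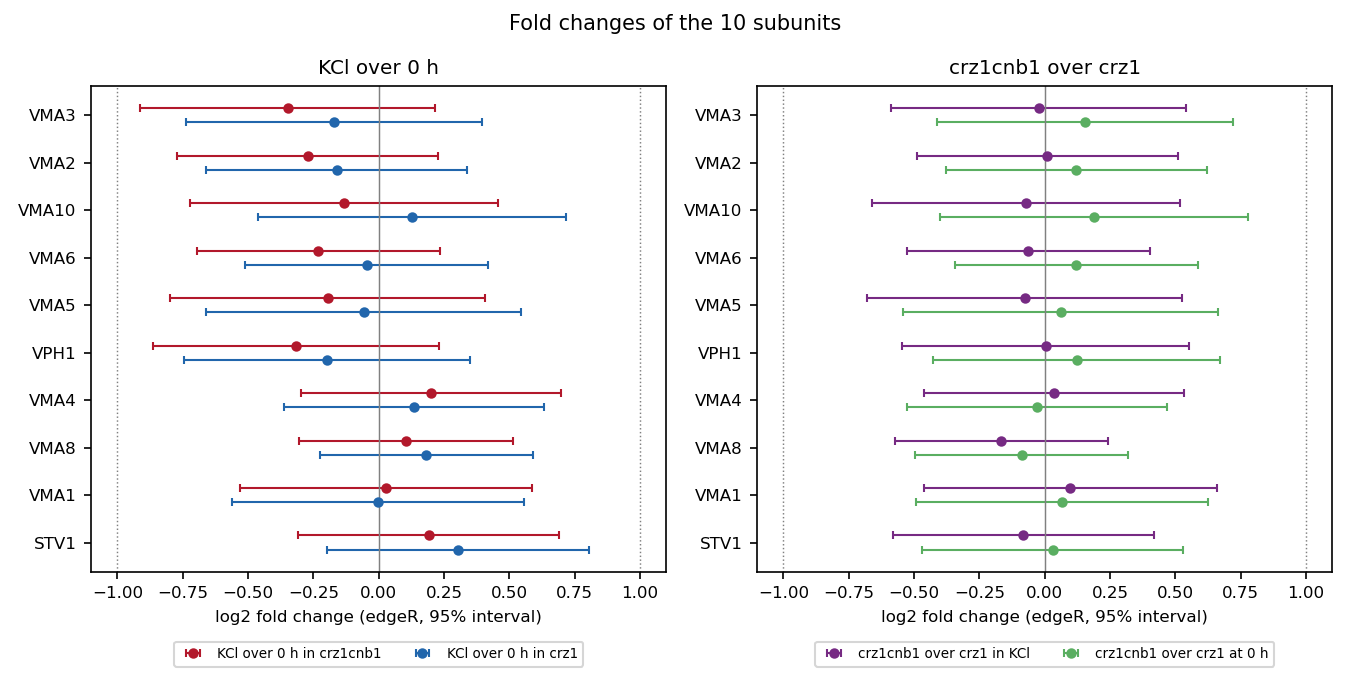
Log2 fold changes of the 10 genes from the edgeR fit with 95% intervals (n = 3 libraries per group), KCl over 0 h on the left and crz1cnb1 over crz1 on the right; dotted lines mark a fold of 2 either way. Every interval of this fit, which has no replicate block, includes 0 and lies between the dotted lines.

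The ratio of the subunit a transcripts was lower in KCl than at 0 h. VPH1 over STV1 in TPM was 4.84, 4.59 and 4.92 in crz1cnb1 KCl, against 7.58, 6.40 and 6.56 in crz1cnb1 0 h. In crz1 it was 4.41, 4.73 and 4.49 in KCl, against 6.96, 5.57 and 6.55 at 0 h. Treatments did not overlap in either strain, as was the case for 5.91% of all ratios between 2 features. The ratio was therefore lower in KCl in 6 of 6 pairs of libraries with the same replicate number, which adds nothing to that separation. The mean ratios were 4.78 ± 0.174 in crz1cnb1 KCl and 6.84 ± 0.638 in crz1cnb1 0 h, and 4.55 ± 0.168 in crz1 KCl and 6.36 ± 0.715 in crz1 0 h.

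On the log2 scale the ratio differed between KCl and 0 h by −0.65, −0.48 and −0.41 in the pairs of crz1cnb1, and by −0.66, −0.23 and −0.54 in those of crz1. The mean differences were −0.51 (SD 0.12, n = 3 pairs) and −0.48 (SD 0.22, n = 3 pairs), which correspond to 70.1% and 71.8% of the ratio at 0 h. Because both genes come from the same library, the ratio does not depend on how libraries are scaled. It is given as a description without a test, and neither gene alone passed the test.

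**Figure D3:**
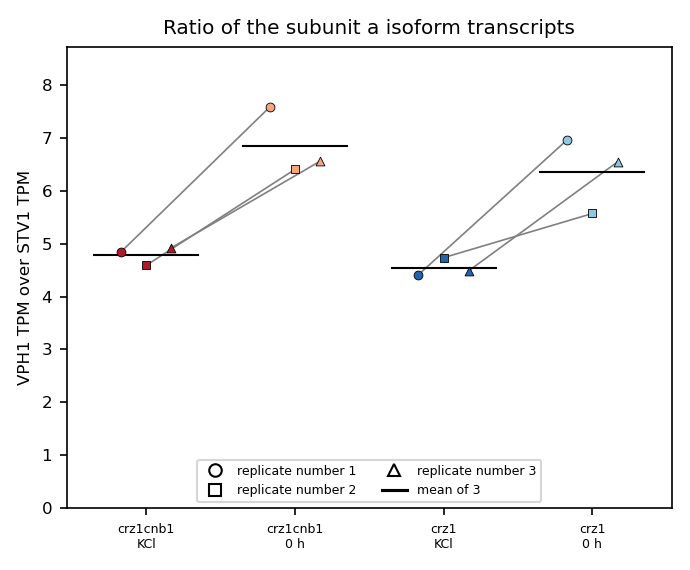
Ratio of VPH1 to STV1 transcripts (TPM over TPM) in each of the 12 libraries by group; lines join the libraries of 1 strain with the same replicate number and black bars are means of 3. All 3 KCl libraries lie below all 3 libraries at 0 h in each strain, at 4.41 to 4.92 against 5.57 to 7.58 over both strains.

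The ratios of the other member pairs were then counted, a step chosen after the data were seen. Of 45 pairs, 7 (15.6%) had ratios separated by treatment in crz1cnb1, 4 (8.89%) in crz1 and 3 (6.67%) in both strains in the same direction. Over all ratios between 2 tested features with TPM above 0 in every library, 15.0% were separated in crz1cnb1, 12.2% in crz1 and 5.91% in both, so separated ratios were about as frequent among the members as among all features. The 3 ratios separated in both strains shared STV1. VMA5 over STV1 differed by −0.37 in crz1cnb1 and −0.34 in crz1 on the log2 scale, and VMA6 over STV1 differed by −0.40 and −0.32. The third was VPH1 over STV1, which had the widest differences of the 3. Among all 45 pairs its difference was the widest in crz1, at −0.48, but not in crz1cnb1, where it was −0.51. There VMA3 over VMA4 (−0.55), VMA4 over VPH1 (0.54) and VMA3 over STV1 (−0.53) differed more.

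The balance of the 2 sectors overlapped between the treatments, although it was higher in KCl in all 3 pairs of crz1cnb1. The summed TPM of the 6 V1 genes over that of the 4 Vo genes was 0.704 ± 0.0580 in crz1cnb1 KCl and 0.601 ± 0.04999 in crz1cnb1 0 h, with overlapping values. In crz1 it was 0.708 ± 0.0870 in KCl and 0.651 ± 0.142 at 0 h. By pairs of the same replicate number, the log2 difference between KCl and 0 h was 0.37, 0.12 and 0.19 in crz1cnb1, and 0.45, −0.21 and 0.18 in crz1, where replicate number 2 went the other way. VMA3 makes up most of this Vo sum of 4 genes. Without it the ratio was 2.80 ± 0.208 in crz1cnb1 KCl and 2.52 ± 0.154 in crz1cnb1 0 h, and 2.79 ± 0.280 in crz1 KCl and 2.64 ± 0.368 in crz1 0 h, again with overlap. Its pairs differed by 0.16, 0.17 and 0.12 in crz1cnb1 and by 0.18, −0.068 and 0.14 in crz1.

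No V-ATPase gene passed the test for a difference between the strains. Between crz1cnb1 and crz1 at 0 h the log2 differences of the members ran from −0.09 for VMA8 to 0.19 for VMA10, with a median of 0.09, against a median of 0.01 for all features. In KCl they ran from −0.17 for VMA8 to 0.10 for VMA1, with a median of −0.04, against 0.00 for all features. edgeR's quasi-likelihood test with Benjamini-Hochberg adjustment called 0 of 10 members in each comparison, where 0.0159% and 0.0476% of all features were called. Members with an unadjusted p under 0.05 numbered 0 in both, against 1.16% of features at 0 h and 1.11% in KCl. DESeq2 called 0 members, against 0.111% and 0.127% of features, and the edgeR fit with the replicate block called 0, against 0.0793% and 0.0634%. The strains overlapped for 10 of 10 members at 0 h and in KCl, whereas they were separated for 4.53% and 3.11% of features in TPM, and for 3.61% and 2.82% in TMM-scaled CPM. The 95% intervals of the strain difference reached from −0.54 for VMA5 to 0.78 for VMA10 at 0 h, and from −0.68 for VMA5 to 0.66 for VMA1 in KCl.

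The difference between the KCl responses of crz1cnb1 and crz1 was tested directly. It ran from −0.26 ± 0.39 for VMA10 to 0.06 ± 0.33 for VMA4 on the log2 scale, with every value smaller in size than its standard error. Values below 0 were found for 8 of 10 members and for 3347 of all 6309 features. The median was −0.12, against −0.01 for all features. edgeR called 0 of 10 members and 0% of all features at an adjusted p of 0.05. At an unadjusted p under 0.05 it gave 0 members and 18 features, which is 0.285%, and DESeq2 and the edgeR fit with the block also called 0. These intervals were the widest, from −1.10 for VMA10 to 0.82 for VMA1, and with the replicate block 8 of 10 lay within a fold of 1.5.

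Most of the variation of the V-ATPase genes followed the replicate number. On the log2 scale of TMM-scaled CPM, the replicate number held 95.6% of the sum of squares over 12 libraries for VMA1, 93.2% for VMA5 and 76.3% for STV1. The lowest share was 49.1% for VMA8, and 9 of 10 members lay above the median of all features, 51.6%. Treatment held at most 20.2%, for STV1, against a median of 10.1% over all features. Strain held at most 9.78%, for VMA8, against a median of 1.31%. The replicate number held more than the treatment in 10 of 10 members. The share of all features with this order was not counted, but their medians, 51.6% and 10.1%, had the same order. The replicate number also has more levels than the treatment, which favours it in every gene. What the replicate numbers stand for is not stated in the labels, and these shares are those under TMM scaling. edgeR called 0 of 10 members in any comparison with the replicate block, without all libraries numbered 2 and without all libraries numbered 3.

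The members fell on different sides of this difference. In replicate number 3, the mean log2 CPM over the 4 groups lay above the gene's own mean by 0.42 for VMA5, 0.36 for VMA1, 0.31 for VPH1, 0.31 for STV1, 0.29 for VMA3, 0.27 for VMA2 and 0.26 for VMA6. VMA10, VMA8 and VMA4 lay at −0.08, −0.10 and −0.19 there. In replicate number 1 these 3 genes were the high ones, at 0.37 for VMA10, 0.28 for VMA4 and 0.19 for VMA8. The size of these values depends on the scaling. TMM factors were 0.791, 0.918, 0.856 and 0.955 in the libraries numbered 3 and 0.978 to 1.17 in the others. A lower factor gives a higher CPM. In TPM, replicate number 3 was highest in all 4 groups for VMA1, VMA5 and STV1. It was highest in 3 groups for VMA6 and VPH1 and in 2 for VMA2 and VMA3. The means of the 3 replicate numbers spanned 0.28 for VMA8 to 0.65 for VMA10, against a median of 0.43 over all features. The mean difference between KCl and 0 h, over both strains, ran from −0.26 for VPH1 to 0.24 for STV1 on the same scale.

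**Figure D4:**
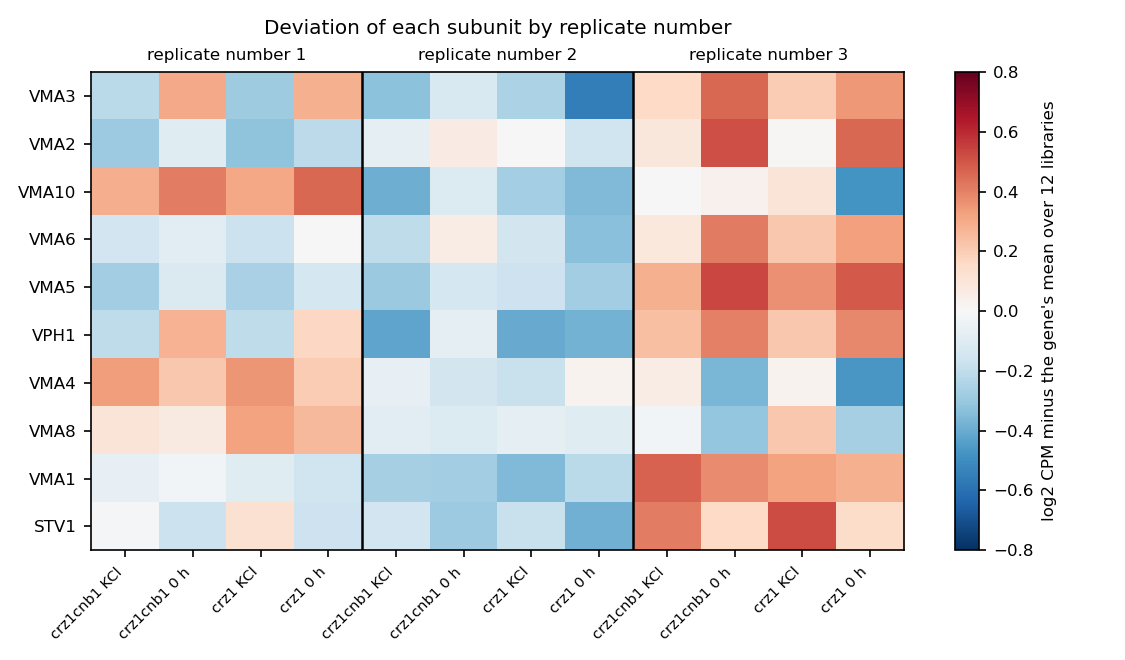
Heat map of log2 CPM (TMM-scaled) of each of the 10 genes minus the gene's mean over 12 libraries, with libraries ordered by replicate number and then by group. VMA5, VMA1 and STV1 are high in all 4 libraries of replicate number 3, and VMA10 is high in all 4 of replicate number 1.

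Each member was scaled to its own mean and SD over the 12 libraries, and the mean of the 10 was compared with other genes. Pearson's r with that mean was 0.914 for VPH1, 0.881 for VMA3, 0.877 for VMA1 and 0.804 for STV1, but 0.112 for VMA8 and −0.08 for VMA4. Each member is part of that mean, which raises its own r, so these values cannot be compared with those of genes outside the list. The 5 genes outside the list with the highest r among 5074 candidates were MSC2, MCK1, KES1, WBP1 and GPI13. MSC2, which encodes a zinc transporter of the endoplasmic reticulum, had an r of 0.992. MCK1, a protein kinase gene of the GSK-3 family, had 0.984, and KES1, an oxysterol-binding protein gene, had 0.982. WBP1, for a subunit of oligosaccharyltransferase, had 0.982, and GPI13, for an enzyme of anchor lipid synthesis, had 0.978. All 12 libraries share the replicate number pattern, so these values carry no p-value. Of the 5 genes, 2 were also among the top 5 by Spearman's rho and 2 among the top 5 after group means were removed.

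None of the remaining V-ATPase subunits passed the test either. VMA7, VMA9, VMA11, VMA13, VMA16 and VOA1 encode subunits F, e, c', H and c'' and an accessory Vo protein. Of these 6 genes, 0 were called by edgeR in any comparison, 0 had an unadjusted p under 0.05 and 0 were called by DESeq2 or with the block. Their median log2 fold change of KCl over 0 h was −0.14 in crz1cnb1, from −0.37 ± 0.32 for VMA16 to 0.12 ± 0.17 for VMA9. In crz1 it was −0.01, from −0.17 ± 0.32 for VMA16 to 0.16 ± 0.17 for VMA9. VMA9 averaged 498.3 ± 24.3 TPM in crz1cnb1 KCl and 412.2 ± 23.1 TPM in crz1cnb1 0 h, and 512.6 ± 46.2 TPM in crz1 KCl and 437.8 ± 26.9 TPM in crz1 0 h. Its TPM values did not overlap between treatments in either strain, but its TMM-scaled CPM values did. Among all features, 13.8% in crz1cnb1 and 9.21% in crz1 were separated in TPM.

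No gene for assembly or regulation of the pump was called. The list held the Vo assembly factors VMA21, VMA22, VPH2 and PKR1, the RAVE complex genes RAV1, RAV2 and SKP1, and OXR1 and RTC5, whose products promote disassembly. edgeR called 0 of 9 with KCl in either strain, and DESeq2 and the fit with the block called 0. Of the 9, 1 gene, RTC5 in crz1cnb1, had an unadjusted p under 0.05 by edgeR, against 8.35% of all features there. The median log2 fold change was 0.07 in crz1cnb1 and 0.12 in crz1. RTC5 had 25.5, 29.3 and 16.5 TPM in crz1cnb1 KCl and 28.0, 33.8 and 24.6 TPM in crz1cnb1 0 h. These TPM values overlapped, whereas its TMM-scaled CPM values in crz1cnb1 did not, with 50.4, 58.0 and 39.0 in KCl and 63.0, 72.5 and 65.6 at 0 h. Its log2 fold change was −0.45 ± 0.19 in crz1cnb1, with an adjusted p of 0.558 by edgeR, and −0.28 ± 0.19 in crz1. OXR1, the other gene of that pair, gave 0.11 ± 0.18 in crz1cnb1 and 0.30 ± 0.18 in crz1, where its CPM values were higher in KCl without overlap and its TPM values overlapped. Among all features, 13.3% in crz1cnb1 and 10.3% in crz1 were separated in CPM. The highest value of the list in crz1cnb1 was 0.18 ± 0.29, for SKP1. VMA21 and RAV1 were separated by treatment in TPM in crz1cnb1, as were 13.8% of all features. There VMA21 had 287.2 to 346.7 TPM in KCl and 209.7 to 283.9 TPM at 0 h. RAV1 had 6.67 to 7.68 TPM in KCl and 5.41 to 6.57 TPM at 0 h. For both genes the TMM-scaled CPM values overlapped in crz1cnb1, and the TPM values overlapped in crz1.

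Of 15 vacuolar transporters that draw on or work beside the proton gradient, edgeR called 0 in either strain and DESeq2 called 0. The median log2 fold change was −0.13 in crz1cnb1, with 11 of 15 below 0, and −0.01 in crz1, with 8 of 15 below 0. At an unadjusted p under 0.05 edgeR gave 2 transporters in crz1cnb1, COT1 and YPQ1, and 0 in crz1, against 8.35% and 8.50% of all features. COT1, which moves zinc and cobalt into the vacuole, was the gene with the largest fold change in crz1cnb1. It had 125.8, 111.5 and 168.2 TPM in crz1cnb1 KCl and 74.8, 63.5 and 87.3 TPM in crz1cnb1 0 h. In crz1 it had 155.6, 97.0 and 165.3 TPM in KCl and 94.5, 74.5 and 89.6 TPM at 0 h. The TPM values did not overlap between treatments in either strain, but the TMM-scaled CPM values overlapped in both. The log2 fold change was 0.69 ± 0.30 in crz1cnb1 and 0.62 ± 0.30 in crz1, with edgeR adjusted p of 0.562 and 0.636. With the replicate block the edgeR adjusted p were 0.00732 and 0.0145, so COT1 passed only in that fit. The fit with the block called 4.98% of all features in crz1cnb1 and 4.82% in crz1. Of all features, 13.8% in crz1cnb1 and 9.21% in crz1 were separated by treatment in TPM. AVT6, an amino acid exporter of the vacuole, had the largest value in crz1, 0.64 ± 0.60. YPQ1, a vacuolar transporter of basic amino acids chosen after its values were seen, had 218.0, 253.8 and 214.1 TPM in crz1cnb1 KCl and 346.2, 262.1 and 339.7 TPM in crz1cnb1 0 h, without overlap. Its log2 fold change was −0.64 ± 0.26 there, with an adjusted p of 0.470 by edgeR, and −0.43 ± 0.26 in crz1, where its values overlapped.

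The lipid PI(3,5)P2, made by the Fab1 complex on the vacuole, is known to stabilise V-ATPases that contain Vph1. Of 7 genes for its synthesis and turnover, edgeR called 0 in either strain, with 0 at an unadjusted p under 0.05, and DESeq2 and the fit with the block called 0. FAB1, the lipid kinase gene, gave 0.35 ± 0.19 in crz1cnb1 and 0.04 ± 0.19 in crz1. FIG4, for its activator and phosphatase, gave 0.24 ± 0.14 in crz1cnb1 and 0.28 ± 0.14 in crz1, and its TPM and CPM values did not overlap between treatments in either strain. Of all features, 13.8% in crz1cnb1 and 9.21% in crz1 were separated in TPM, and 13.3% and 10.3% in CPM.

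Hydrolases that work in the acid vacuole had higher medians than the pump itself, 0.36 on the log2 scale in both strains over 11 genes. edgeR called 0 of 11 in either strain. At an unadjusted p under 0.05 the same test gave 3 of 11 in crz1cnb1 and 1 of 11 in crz1, against 8.35% and 8.50% of all features. DESeq2 called 1 in each, AMS1, the vacuolar alpha-mannosidase, against 1.94% of all features in crz1cnb1 and 1.70% in crz1. AMS1 had 8.07, 4.09 and 6.23 TPM in crz1cnb1 KCl and 2.26, 2.28 and 1.44 TPM in crz1cnb1 0 h. In crz1 it had 7.96, 3.41 and 7.16 TPM in KCl and 2.05, 3.04 and 1.94 TPM at 0 h. Of all features, 13.8% in crz1cnb1 and 9.21% in crz1 were separated by treatment in TPM. All KCl values of AMS1 lay above all values at 0 h, and replicate number 2 differed least. The log2 fold change was 1.49 ± 0.31 in crz1cnb1, with an adjusted p of 0.0620 by edgeR, 0.0163 with the block and 8.58e-04 by DESeq2. In crz1 it was 1.36 ± 0.31, with an adjusted p of 0.0921 by edgeR, 0.0257 with the block and 0.00402 by DESeq2.

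With the block, edgeR called AMS1 and 1 further hydrolase in each strain, against 4.98% of all features in crz1cnb1 and 4.82% in crz1. PHO8, the vacuolar alkaline phosphatase, was lower in crz1cnb1 KCl, with −0.62 ± 0.23 and an adjusted p of 0.0484 with the block and 0.4002 without it by edgeR. PHO8 gave −0.35 ± 0.23 in crz1. PEP4, the protease that activates other vacuolar hydrolases, was higher in crz1 KCl, with 0.70 ± 0.40 and an adjusted p of 0.0349 with the block and 0.792 without it by edgeR. PEP4 gave 0.54 ± 0.40 in crz1cnb1. The difference between the strains in the KCl response was called for 0 of 11 hydrolases by edgeR with or without the block and by DESeq2, with 0 at an unadjusted p under 0.05.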

How the data were processed

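Poly(A) RNA of 12 libraries, 3 replicates in each of 4 groups, was sequenced. The authors' deposited files are a table of raw counts per feature (7126 features) and 1 of TPM (6735 features), each with a column for every library, per the file headers. Per the submitters' processing notes the build was R64 and the tools included featureCounts and DESeq2, without versions. Which aligner, annotation and strand setting were used, and how multiply matching reads were counted, is not given in the sources used here. Whether replicates were separate cultures is not stated, so p-values measure the spread between these samples, which may be technical.

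Counts were tested with edgeR 4.0.16 in R 4.3.3 over all 12 libraries and all features. The fit used filterByExpr (6309 features kept), TMM factors (0.791 to 1.17), 1 coefficient per group, robust glmQLFit, glmQLFTest and Benjamini-Hochberg adjustment at 0.05. The common biological coefficient of variation came to 0.223. Contrasts compared KCl with 0 h within each strain, crz1cnb1 with crz1 at 0 h and in KCl, and the difference of the KCl responses. Intervals are 95% intervals of the log2 fold change. Levels between genes are TPM, and log2 CPM used a prior count of 2. For likeness, genes with a mean of at least 10 CPM were candidates. Ratios between members are described per library, and no test was run on them.

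The members and gene lists were chosen with earlier results of these data known. All members, other subunits and assembly factors were reported, with values for the extremes; of the other lists, the genes past the threshold with or without the block and the largest change in each strain. Pairing by replicate number was checked: deviations from group means correlated at 0.309 to 0.827 in 18 same-number pairs and at −0.732 to 0.317 in 36 others. Every same-number value exceeded 0.1, the rule set for pairing by number, but the highest other value, 0.317, exceeded it too. Deviations from a group mean cancel within the group, which lowers the values of different-number pairs. The pairing rests on these correlations alone and is not certain, since the labels name no shared day. The fit without a block is the main one. Alternatives were DESeq2 1.42.0, its size factors, library totals, no filter, the replicate block, each library left out, and numbers 2 or 3 left out, and for ratios CPM per kilobase. Start regions came from the RefSeq R64 genome.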

Additional observations from a re-analysis of the deposited data

How the results depend on the processing

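No V-ATPase gene was called in any of the 950 values given by 50 member results under 19 alternatives each, and the lowest adjusted p among them was 0.0803 by edgeR, for STV1 in crz1 with the replicate block. The sign changed in 105 of the 950, in each case for a log2 value of 0.195 or less in size. The VPH1 to STV1 ratio was the same with CPM per kilobase, since scaling cancels within a library. Leaving out a library could not turn its direction, because all KCl values lay below all values at 0 h in each strain. Neither alternative therefore tests this ratio. The block and the other settings called none of the members, so the replicate pairing changed no call among them. The counts over all features did move. For KCl against 0 h in crz1cnb1, 37 features became 314 with the replicate block, 120 with DESeq2 and 9 to 54 with libraries left out. In crz1, 36 became 304 with the block, 107 with DESeq2 and 9 to 61 with libraries left out. Between the strains at 0 h, 1 became 5 with the block, 7 with DESeq2, 2 with library totals and 1 to 2 with libraries left out. In KCl, 3 became 8 with DESeq2 and 1 to 4 with libraries left out. The cause was not tested. The fewest calls came without replicate number 3 of crz1cnb1 at 0 h and, in crz1, without all libraries numbered 3. AMS1 was called under 5 of 19 alternatives in each strain, with adjusted p from 8.58e-04 to 0.680 in crz1cnb1 and from 0.00402 to 0.786 in crz1.

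Library totals in place of TMM turned the sign of small values. For KCl against 0 h they gave 0.028 for VMA10 in crz1cnb1, and 0.090 for VMA1, 0.043 for VMA5 and 0.054 for VMA6 in crz1. Between the strains they gave −0.050 for VMA1, −0.048 for VMA5 and −0.080 for STV1 at 0 h, and −0.030 for VMA2, −0.00793 for VMA4 and −0.039 for VPH1 in KCl. With libraries left out, log2 values for KCl against 0 h ran over −0.22 to 0.23 for VMA1, −0.42 to 0.067 for VMA5, −0.31 to 0.027 for VMA10, −0.00804 to 0.20 for VMA9 and −0.018 to 0.47 for SKP1 in crz1cnb1. In crz1 they ran over −0.21 to 0.18 for VMA1, −0.31 to 0.098 for VMA2, −0.025 to 0.29 for VMA4, −0.28 to 0.23 for VMA5, −0.19 to 0.15 for VMA6, −0.063 to 0.48 for VMA10, −0.44 to 0.12 for VMA16, −0.17 to 0.30 for SKP1 and −0.11 to 0.29 for FAB1. Between the strains they ran over −0.14 to 0.25 for VMA1, −0.086 to 0.38 for VMA2, −0.080 to 0.32 for VMA3, −0.19 to 0.12 for VMA4, −0.20 to 0.35 for VMA5, −0.044 to 0.32 for VMA6, −0.19 to 0.073 for VMA8, −0.064 to 0.31 for VPH1 and −0.12 to 0.19 for STV1 at 0 h. In KCl they ran over −0.15 to 0.30 for VMA1, −0.091 to 0.11 for VMA2, −0.19 to 0.15 for VMA3, −0.083 to 0.19 for VMA4, −0.30 to 0.14 for VMA5, −0.16 to 0.071 for VMA6, −0.24 to 0.089 for VMA10, −0.21 to 0.20 for VPH1 and −0.27 to 0.12 for STV1. The difference of the responses ran over −0.22 to 0.23 for VMA1, −0.37 to 0.094 for VMA2, −0.35 to 0.058 for VMA3, −0.082 to 0.22 for VMA4, −0.42 to 0.12 for VMA5, −0.24 to 0.021 for VMA8, −0.33 to 0.073 for VPH1 and −0.30 to 0.088 for STV1. Settings that leave an arm with 2 libraries share the spread of the other groups. Without the block, the 95% intervals for KCl against 0 h reached past a fold of 1.5 for all but 1 member in crz1cnb1 and 2 in crz1, and with it they stayed within that fold for 9 and 10.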

Other observations

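The other ring proteolipids were measured beside VMA3, since the ring holds one copy each of the VMA11 and VMA16 products and several of Vma3. VMA16 averaged 661.1 ± 122.3 TPM in crz1cnb1 KCl and 763.9 ± 134.1 TPM in crz1cnb1 0 h (SD, n = 3 each), and 699.3 ± 135.3 TPM in crz1 KCl and 742.5 ± 166.6 TPM in crz1 0 h. VMA11 averaged 642.9 ± 68.3 TPM in crz1cnb1 KCl and 680.8 ± 96.2 TPM in crz1cnb1 0 h, and 675.7 ± 73.7 TPM in crz1 KCl and 673.6 ± 130.6 TPM in crz1 0 h. In every group both lay below VMA3, whose lowest library had 1771 TPM. VMA13, for the V1 subunit H, was the lowest of the other subunits, at 172.3 ± 34.9 TPM in crz1cnb1 KCl and 165.8 ± 49.9 TPM in crz1cnb1 0 h.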
